A study of Mus musculus with 24 samples.

Results

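The BCL2 family of apoptosis regulators was followed as 10 genes chosen by name: the anti-apoptotic genes Bcl2, Bcl2l1 and Mcl1, the effectors Bax and Bak1, and the BH3-only genes Bid, Bad, Bbc3, Pmaip1 and Bcl2l11. They were 10 of the 17696 genes in the count table. Of the 10, 9 reached a mean of 1 CPM (library-scaled counts, with TMM factors) over all libraries, as did 12670 genes of the whole table, and the member below that level was Pmaip1.

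RNA-seq of MIN6 cells, β-like cells of a mouse insulinoma, gave 24 libraries in 6 groups of 4. All cells had been transduced with a lentiviral vector and selected with puromycin: Scr cells carried a scrambled sequence, ZIP cells an inhibitor of miR-146a-5p, and OE cells an overexpression construct for miR-146a-5p. The groups Scr, ZIP and OE received no cytokines, and Scr+Cy, ZIP+Cy and OE+Cy were kept for 24 h with IL-1β (5 ng/ml), TNFα (10 ng/ml) and IFNγ (100 ng/ml). The design asked which genes differ between the lines and which respond to the cytokines. Each line was expanded from single clones, and OE was made with another vector backbone than Scr and ZIP, so that line, clone and, in OE, vector cannot be told apart. These libraries hold no reading of mature miR-146a-5p that could serve to check the labels of the lines. Replicates carry the numbers 1 to 4, each with a code from P65 to P68 that all 6 groups share, and no source used here says what the code means or that they came from separate cultures. The p values therefore measure the spread between these libraries, which may be technical.

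Proteins of the BCL2 family decide at the outer mitochondrial membrane whether a cell commits to intrinsic apoptosis. BAX and BAK form the pores through which cytochrome c leaves the mitochondria, BCL2, BCL-XL (from Bcl2l1) and MCL1 hold them back, and BH3-only proteins either activate the pore formers or occupy the proteins that restrain them. In β cells, cytokine signalling is known to engage this mitochondrial route. Much of the family is controlled after transcription, by cleavage of BID, phosphorylation of BAD and rapid turnover of MCL1, and none of that is visible in mRNA.

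Depth ranged from 26657795 to 37168207 assigned reads per library. All 8 β cell markers tested reached a mean of 1 CPM in every group, with a summed level of 22833 to 50403 CPM. Cytokine treatment was visible in Irf1, whose level was 18.3 to 36.1 CPM in untreated libraries and 359 to 810.4 CPM in treated ones. The sum hides unequal levels: Ins1 had a mean of 674 CPM in Scr, 7673 in OE and 4661 in OE+Cy, while Pdx1 had 824, 627 and 337, Mafa 1050.4, 716 and 358, and Nkx6-1 254, 167 and 115.0. In the same order, Ins2 had 10933, 18879 and 10819, Iapp 3833, 11431 and 11328, Slc2a2 24.0, 92.7 and 37.3, and Chga 7745, 8824 and 6258. Markers of leukocytes (2 of 5 analysed) summed to at most 4.41 CPM and those of endothelium (1 of 3 analysed) to at most 3.93 CPM. Both sums were higher in OE than in Scr. Cd68 had a mean of 1.51 CPM in Scr and 2.76 in OE (adjusted p = 0.0233). The other leukocyte marker, Ptprc, had 0.0224 CPM in Scr and 0.0068 in OE, within the floor of 3 reads. Pecam1 had 0.0868 CPM in Scr, 0.949 in OE (adjusted p = 8.29e-07) and 2.34 in OE+Cy. With cytokines Pecam1 was also higher in Scr+Cy (0.699 CPM, adjusted p = 3.27e-05) and went from 0.162 in ZIP to 0.970 in ZIP+Cy (adjusted p = 6.01e-05). The summed level of 4 fibroblast markers was 40.8 CPM in Scr+Cy replicate 1, 33.4 CPM in ZIP replicate 1 and 13.7 CPM in Scr replicate 1, and 0.537 to 7.77 CPM in the other libraries. Of these markers, Pdgfra differed by line. It had 0.685 CPM in Scr, 2.88 in ZIP (no overlap, adjusted p = 0.00267) and 0.0694 in OE (adjusted p = 0.000467). Col1a1, Col1a2 and Col3a1 passed in neither comparison (lowest adjusted p = 0.168). With cytokines, Pdgfra had 0.576 CPM in Scr+Cy and 2.56 in ZIP+Cy (adjusted p = 0.00248), while Col1a2 was lower in ZIP+Cy (adjusted p = 0.0406). Among 3 markers of other islet cells, Ppy had 0 reads in every Scr, ZIP and Scr+Cy library, a single read in 1 ZIP+Cy library, and a mean of 8.89 CPM in OE and 4.11 CPM in OE+Cy, whereas Gcg was lower in OE (41.4 CPM) than in Scr (288 CPM). Calls on members that changed without the 3 replicate 1 libraries are given beside the result. Leaving these libraries out does not address the difference of Pdgfra between lines. The part of these markers in the results was not tested.

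The sequences shown first are those of the microRNA and of its seed matches in the family, since the lines differ by design in this microRNA. Mature miR-146a-5p (RefSeq, GRCm38.p6, chr11:43374435-43374456, minus strand) is printed 5′ to 3′ with its seed, bases 2 to 8, in capitals. In the annotated 3′ UTR of each member (GENCODE M21, same build), the letters opposite the seed, AGTTCTC, stood in Bcl2 (chr1:106539550-106539577, minus strand) and in Bcl2l1 (chr2:152781921-152781948, minus strand). Capitals mark the match.
miR-146a-5p: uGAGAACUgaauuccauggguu
Bcl2 3′ UTR: gagccactaaAGTTCTCttctgagctta
Bcl2l1 3′ UTR: cccacatctcAGTTCTCttggcctcaaa
The other 8 members had no such match in the 3′ UTR searched, and 18.2% of 21020 genes with an annotated 3′ UTR had at least 1. A match is a run of letters and not a measured target site. Bcl2 was lower than in Scr in both ZIP and OE, and Bcl2l1 was lower in ZIP, while in OE its log2 difference from Scr was -0.07 ± 0.06 (adjusted p = 0.345).

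Bid and Bak1 were the members that rose with cytokines in every line, and Bbc3 rose in OE+Cy, so the 250 bases before their annotated start (RefSeq, GRCm38.p6, first listed start of each gene) are shown. These are chr6:120916825-120917074 for Bid (minus strand), chr17:27028628-27028877 for Bak1 (minus strand) and chr7:16309333-16309582 for Bbc3 (plus strand). Capitals mark letters that match the NF-κB consensus, which occur in the Bbc3 sequence and in neither of those of Bid and Bak1.
Bid: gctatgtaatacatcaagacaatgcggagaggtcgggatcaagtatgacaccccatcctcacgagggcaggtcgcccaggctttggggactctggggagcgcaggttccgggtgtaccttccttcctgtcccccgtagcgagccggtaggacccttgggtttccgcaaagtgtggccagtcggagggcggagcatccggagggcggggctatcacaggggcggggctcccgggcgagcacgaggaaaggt
Bak1: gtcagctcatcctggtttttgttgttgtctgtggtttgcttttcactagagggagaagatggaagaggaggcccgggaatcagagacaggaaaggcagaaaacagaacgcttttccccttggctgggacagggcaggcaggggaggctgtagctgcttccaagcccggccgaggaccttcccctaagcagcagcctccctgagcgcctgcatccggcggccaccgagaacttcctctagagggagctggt
Bbc3: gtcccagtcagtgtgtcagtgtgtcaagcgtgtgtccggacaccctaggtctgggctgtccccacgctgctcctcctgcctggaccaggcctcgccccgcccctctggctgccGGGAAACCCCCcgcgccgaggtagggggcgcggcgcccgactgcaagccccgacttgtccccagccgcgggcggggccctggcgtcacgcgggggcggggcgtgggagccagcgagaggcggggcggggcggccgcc
In windows from 250 bases before to 50 bases after the start, both strands were searched for the interferon-response core GAAANNGAAA, the GAS motif TTCNNNGAA, the NF-κB consensus and a p53 motif, each counted also where matches overlapped. Of 32851 windows of all genes, 3.44%, 8.30%, 8.46% and 8.36% held them. No window of the 9 members matched held GAAANNGAAA or TTCNNNGAA, that of Bbc3 shown and 1 of the 3 windows of Bcl2l1 held the NF-κB consensus, and that of Bax held the p53 motif. That no letters matched says nothing about a factor bound elsewhere.

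**Figure D1:**
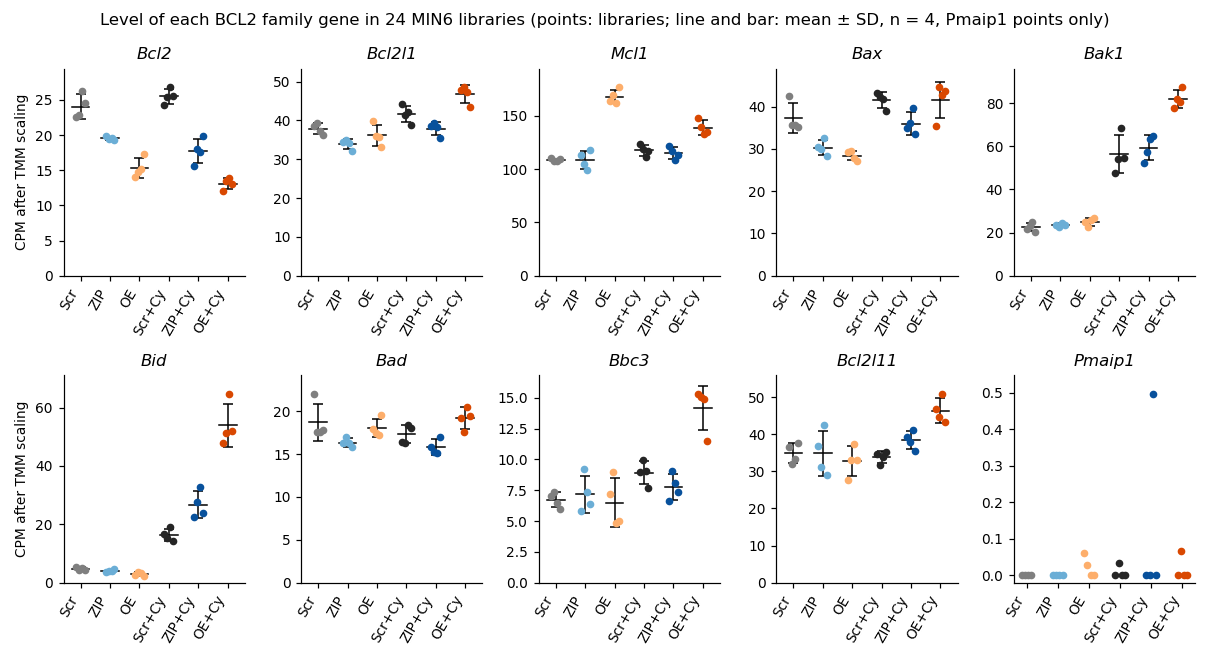
Level of each member (y axis, CPM after TMM scaling) in the 24 libraries (points) of 6 groups (x axis), with the mean and SD of 4 libraries except for Pmaip1. Bid and Bak1 were higher in all 12 treated libraries than in all 12 untreated ones, and Bcl2 was lowest in OE+Cy.

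Exon lengths were those of GENCODE M21, whereas the reads had been counted in the authors' own annotation, and the bounds differ for Bid, Bbc3 and Bcl2l1. Bid starts at 120893119 in the count table and at 120891930 in GENCODE. Its level per kb may therefore be too low, which also bears on the sums and ratios per kb below. Compared per kb of exon, so that genes of different length could be set side by side, Mcl1 was the most abundant member in all 6 groups (31.8 ± 0.397 CPM per kb in Scr and 49.2 ± 1.88 in OE, mean ± SD, n = 4). Bax came next in untreated cells, with 23.7 ± 2.20 in Scr, ahead of Bak1 at 9.37 ± 0.815, Bcl2l1 at 8.26 ± 0.313 and Bad at 7.33 ± 0.848. The levels of Bak1, Bcl2l1 and Bad per kb in Scr overlapped with those of their neighbour in this order. Bcl2l11 (4.35 ± 0.327), Bbc3 (3.17 ± 0.283), Bcl2 (2.63 ± 0.188) and Bid (1.34 ± 0.140) followed, and Pmaip1 was last. Bid changed its place most: it was ninth of 10 in all untreated groups, and with cytokines it was at 4.61 ± 0.578 CPM per kb for Scr+Cy, 7.50 ± 1.30 for ZIP+Cy and 15.2 ± 2.07 for OE+Cy, the last of these above Bcl2l1 in the same group (10.2 ± 0.491).

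The number of members that differed depended on the comparison. The study's thresholds were an unadjusted p under 0.05 together with a 1.5-fold change or more, and "rose" or "fell" is used below for an adjusted p under 0.05 (edgeR quasi-likelihood test, Benjamini-Hochberg over all genes). In untreated ZIP against Scr, no member passed the study's thresholds (14.9% of all genes did), while 4 fell at the adjusted p, the same number as at an unadjusted p under 0.05 (28.3% of all genes changed). In untreated OE against Scr, 3 members passed the thresholds (25.7% of all genes) and 4 changed at the adjusted p, 1 up and 3 down (50.1%). At the study's thresholds, 0 of 10 members in ZIP was below the share of all genes, and 3 of 10 in OE was near it. At the adjusted p, 4 of 10 in ZIP was above that share and 4 of 10 in OE was below it.

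Cytokines moved 2 members past the study's thresholds in Scr (10.6% of all genes), and the same 2 rose at the adjusted p (17.8%). In ZIP, 3 members passed the thresholds (12.5%), of which Pmaip1 rested on 1 library, and 4 rose (26.4%). In OE, 3 members passed them (21.0%), and 8 changed at the adjusted p, 6 up and 2 down (44.6%). The median log2 fold change of the 10 members was 0.15 in Scr, 0.15 in ZIP and 0.44 in OE, beside medians over all genes of 0.00, -0.01 and 0.02.

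Between treated lines, 1 member passed the study's thresholds in ZIP+Cy against Scr+Cy (15.8% of all genes) and 3 changed at the adjusted p (28.1%). In OE+Cy against Scr+Cy, 3 members passed (28.5%) and 7 changed, 6 up and 1 down (53.4%). Against untreated Scr, 3 members passed in ZIP+Cy (21.7%) and 5 changed (40.8%), and both counts include Pmaip1, which rested on 1 library. In OE+Cy, 4 passed (34.2%) and 7 changed (59.5%). The comparisons with Scr share its 4 libraries, and their values are given side by side. In a bulk library, fewer cells of a kind and less RNA per cell cannot be told apart, and this holds for each level below.

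Bcl2, the founding anti-apoptotic gene (chr1:106538176-106714290, minus strand), was lower in both ZIP and OE than in Scr. Its level was 22.6, 22.8, 26.3 and 24.5 CPM in the Scr libraries, 19.8, 19.4, 19.6 and 19.3 in ZIP, and 14.1, 14.8, 15.1 and 17.3 in OE. The 3 untreated groups did not overlap. Bcl2 fell by 0.30 ± 0.07 (SE) on the log2 scale in ZIP (adjusted p = 0.00245) and by 0.65 ± 0.07 in OE (adjusted p = 4.82e-08). With cytokines the libraries had 24.2, 25.3, 26.8 and 25.6 CPM for Scr+Cy, 15.6, 18.0, 17.6 and 19.8 for ZIP+Cy and 12.0, 13.5, 13.8 and 13.0 for OE+Cy. The treated groups did not overlap either, and the log2 differences of ZIP+Cy and OE+Cy from Scr+Cy were -0.52 ± 0.07 (adjusted p = 4.44e-06) and -0.96 ± 0.07 (adjusted p = 7.87e-11). The cytokine response of Bcl2 was 0.08 ± 0.07 in Scr (adjusted p = 0.479) and -0.14 ± 0.07 in ZIP (adjusted p = 0.180), and Bcl2 fell by 0.22 ± 0.07 in OE (adjusted p = 0.0162). That last call was lost without OE replicate 4 (adjusted p = 0.0862) or OE+Cy replicate 1 (adjusted p = 0.0596), and in a fit of OE and OE+Cy alone (adjusted p = 0.0536).

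Mcl1 encodes a short-lived anti-apoptotic protein (chr3:95658721-95663178, plus strand). Its level was 110.1, 107, 107 and 109 CPM in Scr, 114, 105, 99.1 and 118 in ZIP and 164, 169, 162 and 177 in OE. All 4 OE libraries were above every Scr and ZIP library, and Mcl1 was the member that rose in untreated OE (log2 fold change 0.63 ± 0.05, adjusted p = 4.39e-10), while ZIP and Scr overlapped (0.00 ± 0.05). Treated libraries had 124, 119, 112 and 117 CPM for Scr+Cy, 122, 117, 109 and 113 for ZIP+Cy and 148, 139, 133 and 135 for OE+Cy. OE+Cy lay between OE and Scr+Cy and overlapped neither. In OE, Mcl1 fell with cytokines by 0.28 ± 0.05 (adjusted p = 0.000132) and it stayed above Scr+Cy by 0.24 ± 0.05 (adjusted p = 0.000539), whereas its cytokine response was 0.12 ± 0.05 in Scr (adjusted p = 0.141) and 0.08 ± 0.05 in ZIP (adjusted p = 0.290).

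Bcl2l1, the gene of BCL-XL (chr2:152758732-152831728, minus strand), varied less. The untreated libraries had 38.6, 39.4, 37.3 and 36.1 CPM in Scr, 34.5, 34.8, 34.1 and 32.2 in ZIP and 39.8, 36.0, 35.8 and 33.0 in OE. ZIP lay below Scr without overlap and OE overlapped both. It fell by 0.16 ± 0.06 in ZIP (adjusted p = 0.0371), a call lost when any of Scr replicates 1, 2 and 3 or ZIP replicates 1, 3 and 4 was left out (adjusted p up to 0.110), without the 3 libraries with the most fibroblast marker RNA (adjusted p = 0.0984), with DESeq2's size factors (adjusted p = 0.0540) and in a fit of the 2 groups alone (adjusted p = 0.0626). Treated libraries had 44.1, 41.3, 42.2 and 38.9 CPM for Scr+Cy, 38.7, 39.3, 38.2 and 35.4 for ZIP+Cy and 47.8, 48.5, 47.3 and 43.5 for OE+Cy. OE+Cy was above all OE libraries and overlapped with Scr+Cy through 1 library. Bcl2l1 rose with cytokines by 0.37 ± 0.06 in OE (adjusted p = 8.12e-06) and by 0.16 ± 0.06 in ZIP (adjusted p = 0.0405), and in Scr the value was 0.14 ± 0.06 (adjusted p = 0.103, and 0.0134 with the replicate number as a block). The call in ZIP was lost without each single ZIP or ZIP+Cy library except ZIP+Cy replicate 4 (adjusted p up to 0.116), with DESeq2's size factors (0.0517), in a fit of the groups compared (0.0599) and without the 3 libraries with the most fibroblast marker RNA (0.0623). Against Scr+Cy, Bcl2l1 was 0.17 ± 0.06 higher in OE+Cy (adjusted p = 0.0154, and 0.0636 without Scr+Cy replicate 4) and differed by -0.14 ± 0.06 in ZIP+Cy (adjusted p = 0.0777, and 0.00978 with the replicate number as a block).

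Bax encodes a pore former that moves from the cytosol to mitochondria when activated (chr7:45461695-45466898, minus strand). Its level was 42.5, 35.6, 35.7 and 35.3 CPM in Scr, 30.3, 29.9, 32.6 and 28.3 in ZIP and 29.3, 29.4, 27.7 and 27.1 in OE. Scr was above both other lines without overlap, and its replicate 1 stood apart from the other 3. Of the exon bases of Bax in GENCODE, 12.2% are shared with Gm45808 on the same strand, which is not in the count table. Bax fell by 0.30 ± 0.07 in ZIP (adjusted p = 0.00307) and by 0.39 ± 0.07 in OE (adjusted p = 8.23e-05), and neither call was lost when single libraries were left out. With cytokines the libraries had 43.3, 42.2, 41.7 and 38.8 CPM for Scr+Cy, 34.8, 36.0, 39.6 and 33.4 for ZIP+Cy and 35.4, 44.5, 42.9 and 43.6 for OE+Cy. OE+Cy overlapped Scr+Cy, where untreated OE and Scr had not overlapped. Bax rose with cytokines by 0.55 ± 0.07 in OE (adjusted p = 1.23e-06) and by 0.25 ± 0.07 in ZIP (adjusted p = 0.0150, and 0.0715 without ZIP+Cy replicate 3), and in Scr the value was 0.15 ± 0.07 (adjusted p = 0.157, and 0.0356 without Scr replicate 1). OE+Cy differed from Scr+Cy by 0.00 ± 0.07 (adjusted p = 0.983). ZIP+Cy was 0.21 ± 0.07 lower than Scr+Cy (adjusted p = 0.0367), a call lost without any of Scr+Cy replicates 1, 2 and 3 or ZIP+Cy replicates 1, 2 and 4 (adjusted p up to 0.116), with DESeq2's size factors (0.0513) and without the 3 libraries with the most fibroblast marker RNA (0.0728). OE+Cy differed from untreated Scr by 0.16 ± 0.07 (adjusted p = 0.0651), which passed without those 3 libraries (adjusted p = 0.0124), without Scr replicate 1 (0.0094) or OE+Cy replicate 1 (0.00637), with DESeq2 (0.0391), with its size factors (0.0430) and with the filter on low counts (0.0448).

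Bak1, the effector that resides in the mitochondrial membrane (chr17:27019812-27028627, minus strand), rose with cytokines in each line. Untreated libraries had 21.7, 22.9, 25.1 and 20.5 CPM in Scr, 23.6, 22.7, 24.4 and 23.6 in ZIP and 24.9, 22.6, 25.7 and 26.8 in OE, and these groups overlapped. Treated libraries had 47.6, 54.2, 68.6 and 54.8 CPM for Scr+Cy, 52.2, 57.4, 63.2 and 64.6 for ZIP+Cy and 77.8, 81.9, 80.5 and 87.3 for OE+Cy. No treated library overlapped its untreated group, and OE+Cy was above all libraries of the other treated lines. The fold change with cytokines was 2.50 in Scr (log2 1.32 ± 0.09, adjusted p = 2.87e-11), 2.52 in ZIP (1.33 ± 0.09, adjusted p = 2.57e-11) and 3.28 in OE (1.71 ± 0.09, adjusted p = 1.06e-13). OE+Cy exceeded Scr+Cy by 0.54 ± 0.09 on the log2 scale (adjusted p = 1.03e-05), and ZIP+Cy differed from Scr+Cy by 0.08 ± 0.09 (adjusted p = 0.558). The largest exon overlap of Bak1 with a gene on the other strand was 18.2% of its exon bases, with Ggnbp1, which had a mean of 0.729 CPM.

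Bid, the BH3-only gene whose product links death receptors to mitochondria after caspase cleavage (chr6:120893119-120916824, minus strand), had the widest range of group means in the family (4.17 on the log2 CPM scale, beside 1.86 for Bak1 and 1.16 for Bbc3). Its untreated level was 5.21, 4.37, 5.19 and 4.30 CPM in Scr, 3.73, 4.01, 4.12 and 4.60 in ZIP and 2.66, 3.62, 3.37 and 2.26 in OE. OE was below every Scr and ZIP library, and Bid fell by 0.67 ± 0.15 in OE against Scr (adjusted p = 0.000829), while ZIP overlapped Scr (-0.21 ± 0.15, adjusted p = 0.332). With cytokines the libraries had 16.8, 15.4, 19.0 and 14.2 CPM for Scr+Cy, 22.3, 27.8, 32.7 and 23.7 for ZIP+Cy and 47.8, 51.3, 64.6 and 52.1 for OE+Cy. The 3 treated groups did not overlap one another and were in the order OE+Cy, ZIP+Cy, Scr+Cy, so that OE went from the lowest level of the 3 lines to the highest. Bid rose 3.42-fold in Scr (log2 1.78 ± 0.14, adjusted p = 3.5e-10), 6.45-fold in ZIP (2.69 ± 0.14, adjusted p = 2.32e-13) and 18.0-fold in OE (4.17 ± 0.15, adjusted p = 6.3e-17). Against Scr+Cy it was 0.70 ± 0.12 higher in ZIP+Cy (adjusted p = 0.000108) and 1.72 ± 0.12 higher in OE+Cy (adjusted p = 2.84e-11). Of the exon bases of Bid in GENCODE, 17.7% overlap Bcl2l13 on the opposite strand. The count table's Bid spans less than that of GENCODE, so whether the shared bases were counted is not known. Nor is the use of strand in counting given in the sources used here. Bcl2l13 did not move with Bid: its mean was 119 CPM in Scr and 118 in Scr+Cy, and 138 in OE and 137 in OE+Cy.

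Bbc3, which encodes the p53-inducible BH3-only protein PUMA (chr7:16309583-16318334, plus strand), rose with cytokines in OE. The untreated libraries had 7.07, 7.36, 6.50 and 6.01 CPM in Scr, 5.78, 9.19, 7.38 and 6.35 in ZIP and 7.16, 8.98, 4.83 and 5.01 in OE, and all these groups overlapped. With cytokines they had 8.96, 9.95, 9.09 and 7.69 CPM for Scr+Cy, 6.60, 9.09, 8.09 and 7.32 for ZIP+Cy and 15.3, 15.1, 14.9 and 11.5 for OE+Cy. All OE+Cy libraries were above every other library, and replicate 4 was the lowest of them. The rise in OE was 2.18-fold (log2 1.12 ± 0.16, adjusted p = 4.65e-06). In Scr, the treated libraries did not overlap the untreated ones, but the difference of 0.40 ± 0.17 did not pass the adjusted threshold (adjusted p = 0.1002, and 0.0189 with the replicate number as a block), and in ZIP it was 0.12 ± 0.17 (adjusted p = 0.674). OE+Cy exceeded Scr+Cy by 0.67 ± 0.16 (adjusted p = 0.00122).

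Bcl2l11 encodes BIM, which binds all the anti-apoptotic proteins (chr2:128126038-128162547, plus strand). Its untreated level was 36.5, 32.1, 33.4 and 37.7 CPM in Scr, 37.0, 31.1, 42.4 and 29.0 in ZIP and 27.7, 33.1, 37.3 and 33.1 in OE. The lines overlapped, with log2 differences from Scr of 0.00 ± 0.10 in ZIP (below 0 by less than 0.01, and above 0 with other normalizations) and -0.09 ± 0.10 in OE. With cytokines the libraries had 34.8, 31.6, 33.9 and 35.3 CPM for Scr+Cy, 39.1, 38.0, 41.0 and 35.4 for ZIP+Cy and 46.8, 44.7, 50.8 and 43.2 for OE+Cy. OE+Cy was above all other libraries, and Bcl2l11 rose by 0.50 ± 0.10 in OE (adjusted p = 0.000145), beside -0.04 ± 0.10 in Scr (adjusted p = 0.833) and 0.14 ± 0.10 in ZIP (adjusted p = 0.321).

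Bad, whose product is held inactive by survival-factor kinases (chr19:6941861-6951905, plus strand), had the narrowest range of the 10 (0.28 on the log2 CPM scale between the highest and the lowest group mean). The libraries had 22.0, 17.6, 17.5 and 17.8 CPM in Scr, 16.3, 17.0, 16.3 and 15.8 in ZIP and 17.2 to 19.6 in OE. Scr replicate 1 stood above the other 3. No cytokine response of Bad passed the test in any of the 3 lines (log2 -0.11 ± 0.07 in Scr, -0.04 ± 0.07 in ZIP and 0.09 ± 0.07 in OE). The value in ZIP against Scr, -0.20 ± 0.07 (adjusted p = 0.0453), lost its call without Scr replicate 1 (adjusted p = 0.234) and without any of 5 other libraries (Scr replicate 3 and ZIP replicates 1 to 4, adjusted p up to 0.102), without the 3 libraries with the most fibroblast marker RNA (adjusted p = 0.323), with DESeq2's size factors (0.0518) and in a fit of the 2 groups alone (0.108). ZIP+Cy was 0.24 ± 0.07 lower than untreated Scr (adjusted p = 0.00989), and this too was lost without Scr replicate 1 (adjusted p = 0.0681) and without the 3 libraries (adjusted p = 0.0853). Bad shares 20.5% of its exon bases with Gpr137 on the opposite strand and its deposited values were not whole numbers in any of the 24 libraries, so its level is uncertain.

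Pmaip1, which encodes NOXA (chr18:66458604-66465558, plus strand), was close to the limit of detection. It had 0 reads in all 8 untreated Scr and ZIP libraries, 2, 1, 0 and 0 reads in OE, 0, 1, 0 and 0 for Scr+Cy, 0, 0, 13 and 0 for ZIP+Cy and 0, 2, 0 and 0 for OE+Cy. The 13 reads of ZIP+Cy replicate 3 were 0.498 CPM, and no other library exceeded 3 reads, the floor used here for counting error. Pmaip1 passed the study's thresholds in ZIP+Cy against ZIP and against Scr through this library alone, and no fold change is given. Against Scr it also passed at the adjusted p (0.0406), through the same library.

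**Figure D2:**
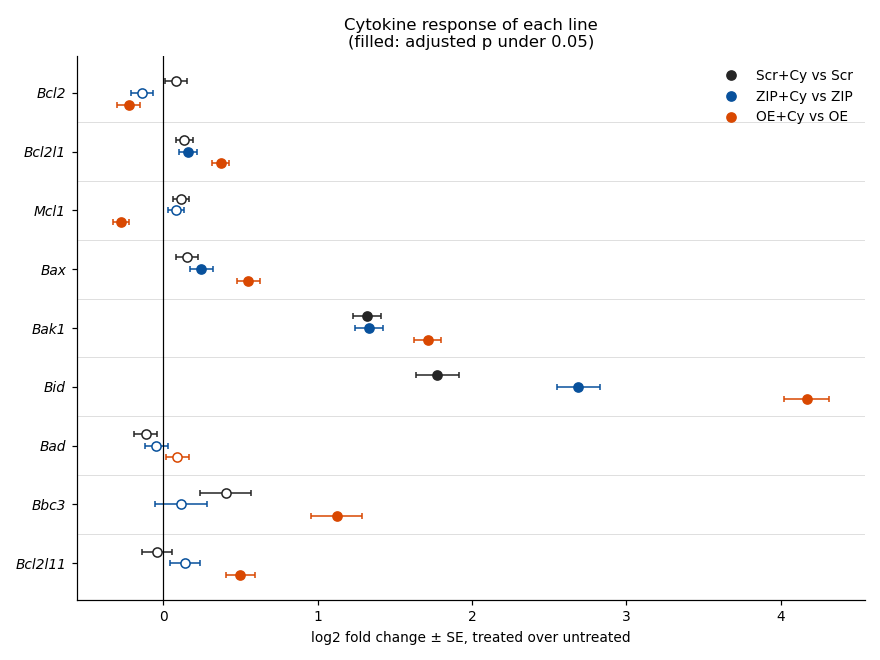
Cytokine response of 9 members (y axis) in each line, as log2 fold change of treated over untreated libraries (x axis) with its SE, filled where the adjusted p is under 0.05. Bid and Bak1 were to the right of 0 in all lines, and the OE value was farthest from 0 for every member except Bad.

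The question whether the lines responded differently to the cytokines was put to an interaction test in the same model. For OE against Scr, 8 of the 10 members had a different response at an adjusted p under 0.05, beside 20.0% of all genes. In 6 of them (Bcl2l1, Bax, Bak1, Bid, Bbc3 and Bcl2l11) the change was more positive in OE, and in 2 (Bcl2 and Mcl1) more negative. The largest difference was that of Bid, 2.39 ± 0.20 on the log2 scale (adjusted p = 3.45e-08), followed by Bbc3 with 0.72 ± 0.23 (adjusted p = 0.0310) and Bcl2l11 with 0.54 ± 0.14 (adjusted p = 0.00621). The responses of Bax (0.40 ± 0.10, adjusted p = 0.00790), Mcl1 (-0.39 ± 0.07, adjusted p = 0.000600), Bak1 (0.39 ± 0.12, adjusted p = 0.0275), Bcl2 (-0.31 ± 0.10, adjusted p = 0.0358) and Bcl2l1 (0.23 ± 0.08, adjusted p = 0.0403) differed less. The difference was past 1.5-fold for Bid and Bbc3. Bad (0.20 ± 0.10, adjusted p = 0.177) and Pmaip1 did not pass.

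The count of 8 rested in part on single libraries. Without the 3 libraries with the most fibroblast marker RNA, 4 members were left, and these were Bid, Bax, Mcl1 and Bcl2l11, whose calls were also kept when each of the 16 libraries was left out in turn. Leaving out 1 library gave counts between 4 and 8: 4 without Scr+Cy replicate 4, and 5 without Scr replicate 1, Scr replicate 2, OE replicate 3, OE replicate 4 or Scr+Cy replicate 2. At least 1 of the 8 calls was also lost without Scr replicate 3, OE replicate 2, Scr+Cy replicate 1 or 3, or any OE+Cy library. The call of Bcl2 was lost without 9 of the 16 libraries (adjusted p up to 0.0934) and that of Bcl2l1 without 11 (0.113). Those of Bak1 and Bbc3 were lost without 5 (0.0807) and 7 (0.0729). In a fit of the groups compared alone, Bcl2l1 (adjusted p = 0.0999) and Bak1 (0.0521) did not pass.

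For ZIP against Scr, no member had a different cytokine response at an adjusted p under 0.05 in edgeR, beside 0.0565% of all genes, and 2 did at an unadjusted p under 0.05 (Bcl2 and Bid). The response of Bid was 0.91 ± 0.20 larger in ZIP on the log2 scale (adjusted p = 0.110), and it passed with DESeq2 (adjusted p = 0.00698) and in the fit blocked on replicate number (adjusted p = 0.00742). All 4 ZIP+Cy libraries had more Bid than any Scr+Cy library. The response of Bcl2 differed by -0.22 ± 0.10 between ZIP and Scr (adjusted p = 0.754).

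**Figure D3:**
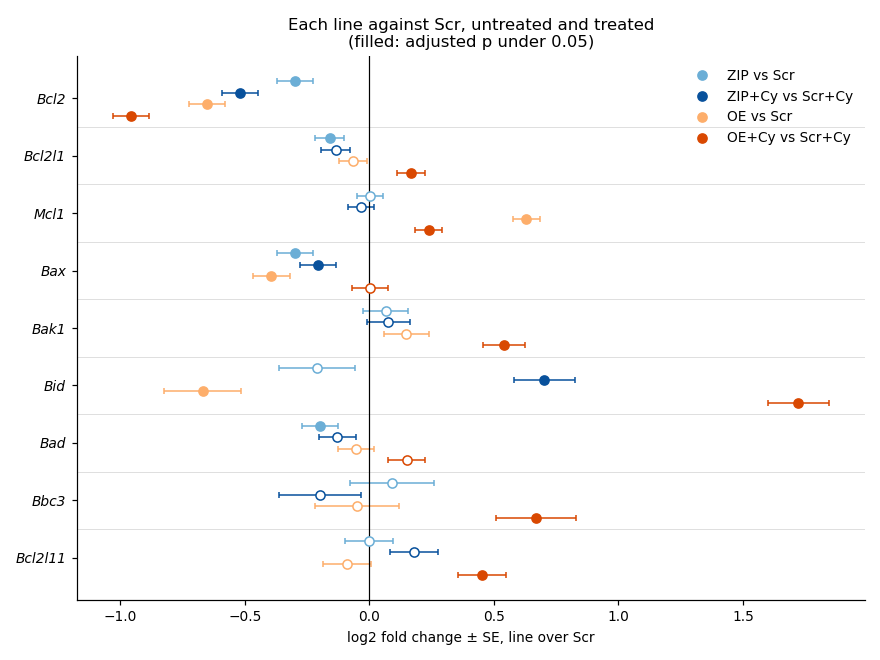
Difference of ZIP and OE from Scr for 9 members (y axis), without and with cytokines, as log2 fold change (x axis) with its SE, filled where the adjusted p is under 0.05. Bcl2 was left of 0 in all 4 comparisons, Mcl1 right of 0 in both comparisons of OE, and Bid changed side between untreated and treated OE.

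Summed by role, per kb of exon, the members show where the family's mRNA lay. The 3 anti-apoptotic genes had 42.7 ± 0.290 CPM per kb in Scr, 41.4 ± 2.29 in ZIP and 58.7 ± 1.59 in OE, and 46.3 ± 1.64, 43.9 ± 1.67 and 52.2 ± 2.17 with cytokines, mostly Mcl1. The 2 effectors had 33.0 ± 2.15, 29.0 ± 1.33 and 28.4 ± 0.369 in untreated Scr, ZIP and OE, and 49.7 ± 3.61, 47.5 ± 3.14 and 60.4 ± 3.99 in the treated groups. The 5 BH3-only genes had 16.2 ± 1.17, 15.3 ± 1.03 and 15.0 ± 0.786 untreated, and 19.8 ± 0.870, 22.2 ± 1.67 and 35.2 ± 2.96 treated. Untreated OE thus had the highest anti-apoptotic sum and OE+Cy the highest effector and BH3-only sums, and in OE+Cy the libraries of both latter sums overlapped those of another group only for the effectors (54.8 to 63.9 in OE+Cy and 47.3 to 55.0 in Scr+Cy).

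The ratio of Bax to Bcl2 per kb of exon, often used as an index of the balance between effector and guardian, was 10.9, 9.07, 7.90 and 8.37 in the Scr libraries, 8.89, 8.96, 9.68 and 8.52 in ZIP and 12.1, 11.5, 10.7 and 9.14 in OE. These groups overlapped. With cytokines it was 10.4, 9.67, 9.06 and 8.82 for Scr+Cy, 13.0, 11.6, 13.0 and 9.80 for ZIP+Cy and 17.1, 19.1, 18.0 and 19.4 for OE+Cy. All 4 OE+Cy libraries exceeded every other library, while Scr+Cy overlapped Scr. The ratio of Bid to Bcl2 was 0.513 ± 0.0599 in Scr, 0.544 ± 0.0533 in ZIP and 0.508 ± 0.128 in OE, and 1.66 ± 0.189, 3.89 ± 0.703 and 10.6 ± 0.989 with cytokines, and each treated group was separate from the others. For Bak1 to Mcl1 the ratio was 0.295 ± 0.0287 in Scr and 0.211 ± 0.0151 in OE, and 0.683 ± 0.137 in Scr+Cy and 0.839 ± 0.0714 in OE+Cy. These ratios are descriptions of mRNA levels and were not tested.

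**Figure D4:**
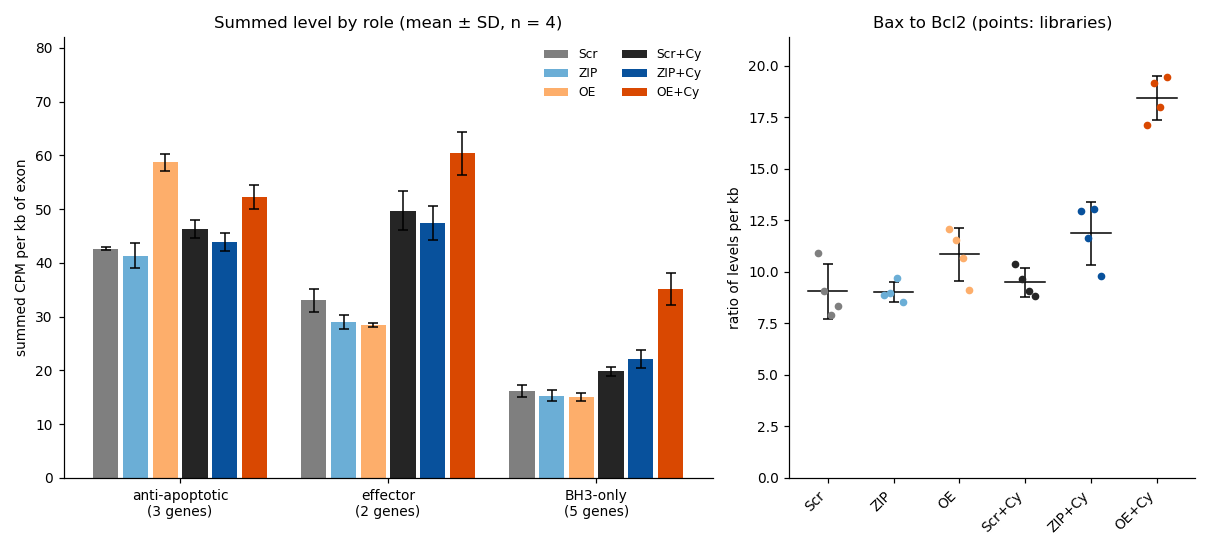
Left, summed level of the members by role (y axis, CPM per kb of exon, bars from 0, mean and SD of 4 libraries) in the 6 groups. Right, ratio of Bax to Bcl2 per kb in each library (points) with mean and SD; the OE+Cy libraries lie between 17.1 and 19.4, above all others.

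The other genes of the pathway were read as 5 lists, and counts are those at the adjusted p, to be read beside the shares of all genes called with cytokines, 17.8% in Scr, 26.4% in ZIP and 44.6% in OE. Of 6 other BCL2-like genes analysed (of 11 listed), 2 rose and 1 fell with cytokines in Scr, as in ZIP, and 1 rose and 1 fell in OE (median log2 fold change 0.67, -0.12 and 0.36). Bok, an effector-like relative, went from 10.2 ± 1.00 to 25.8 ± 4.87 CPM in Scr (log2 1.34 ± 0.14, adjusted p = 8.83e-08) and was 15.4 ± 0.649 CPM in OE and 18.6 ± 2.11 in OE+Cy (adjusted p = 0.110). Bcl2l14 was 0.359 ± 0.194 CPM in Scr, 4.84 ± 1.56 in OE and 7.74 ± 1.72 in OE+Cy (OE+Cy against Scr 4.43 ± 0.30, adjusted p = 4.48e-12). Bcl2l2, the anti-apoptotic gene of BCL-W, was lower in ZIP+Cy (105 ± 4.41 CPM) than in Scr (142 ± 5.85, log2 difference -0.44 ± 0.05, adjusted p = 2.95e-08). It had 120 ± 4.84 CPM in ZIP and 128 ± 2.37 in Scr+Cy.

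Of 6 other BH3 genes, none changed with cytokines in Scr at the adjusted p (nor at an unadjusted p under 0.05), 1 fell in ZIP, and 3 rose and 2 fell in OE (17.8%, 26.4% and 44.6% of all genes changed). Bmf, a BH3-only gene, was higher in OE (9.81 ± 3.20 CPM) than in Scr (2.84 ± 0.327; log2 1.79 ± 0.22, adjusted p = 3.65e-07). Bik was lower in OE (0.413 ± 0.181 CPM) than in Scr (1.72 ± 0.487; -2.06 ± 0.33, adjusted p = 1.24e-05). Bnip3, a hypoxia-inducible mitochondrial gene, was 246 ± 107 CPM in Scr and 32.3 ± 7.33 in OE+Cy (-2.93 ± 0.45, adjusted p = 4.34e-06), with 111 to 334 CPM among the Scr libraries. It had 149 ± 77.7 CPM in OE and 167 ± 87.6 in Scr+Cy.

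Downstream of the pores, the 12 apoptosome and release genes gave these counts with cytokines: 6 rose and none fell in Scr, 7 rose and none fell in ZIP, and 7 rose and 3 fell in OE (median 0.20, 0.36 and 0.42), beside 17.8%, 26.4% and 44.6% of all genes. Endog, a mitochondrial nuclease, fell in OE by 0.86 ± 0.17 (adjusted p = 0.000213).

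Among 4 partners at the outer membrane, 1 fell with cytokines in Scr, 1 rose and 1 fell in ZIP and 1 fell in OE. Vdac1, the channel of that membrane, was 294 ± 21.6 CPM in Scr and 183 ± 6.35 in OE+Cy (-0.69 ± 0.07, adjusted p = 6.48e-09), Vdac2, a known partner of BAK, was 0.15 ± 0.06 higher in OE+Cy than in Scr+Cy (adjusted p = 0.0294), and Mtch2, a receptor for BID, was 0.18 ± 0.04 higher in ZIP+Cy than in Scr (adjusted p = 0.00128). Of 15 regulators of the members, 5 rose and none fell with cytokines in Scr, 3 rose and 1 fell in ZIP, and 8 rose and 2 fell in OE, beside the same 17.8%, 26.4% and 44.6%. Jun was 38.4 ± 5.02 CPM in Scr and 183 ± 7.31 in OE+Cy (2.25 ± 0.12, adjusted p = 7.83e-14). Ddit3, the stress gene of CHOP, was 22.7 ± 4.04 CPM in Scr and 66.9 ± 17.4 in OE+Cy (1.56 ± 0.25, adjusted p = 6.55e-06). These differences, like those of Vdac1 and Mtch2 from untreated Scr, span both line and treatment. Trp73, a p53 relative, was near the limit of use, at 0.420 ± 0.134 CPM in Scr and 0.121 ± 0.0655 in ZIP (adjusted p = 0.00874).

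**Figure D5:**
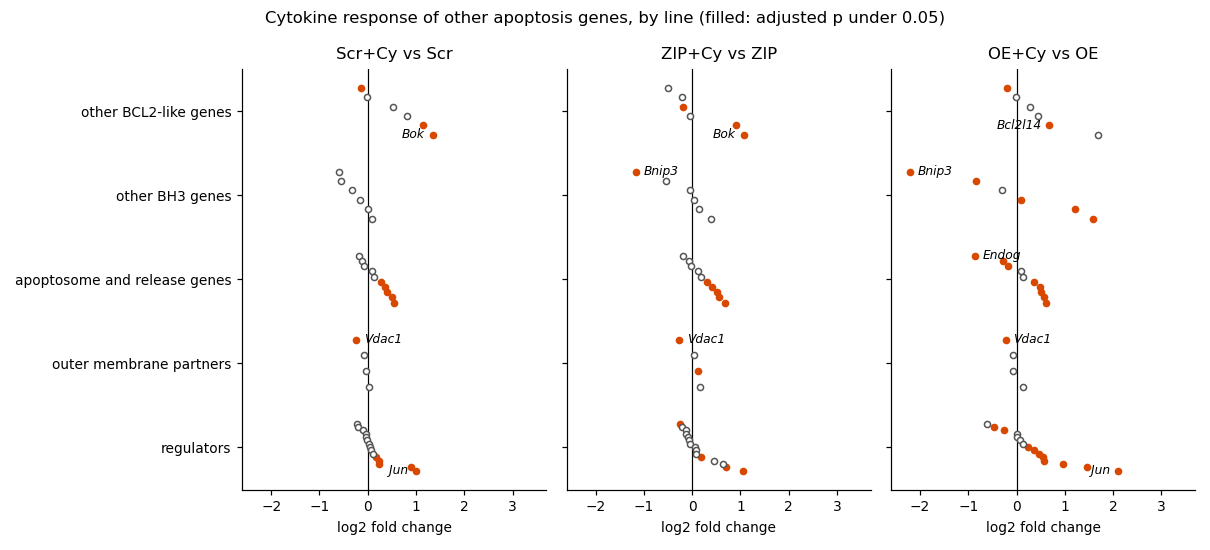
Cytokine response (x axis, log2 fold change) of the genes reported from 5 lists (y axis) in Scr, ZIP and OE, each point a gene, filled at an adjusted p under 0.05, and the called gene farthest from 0 named where the text describes it; within a list the points are spread by rank. Bnip3 was the farthest in OE, at -2.20.

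The genes whose pattern over the 24 libraries was most like that of the 3 members with the widest range were found by Pearson correlation of log2 CPM with 12669 genes of at least 1 CPM. They share libraries, lines and treatment, and the values are a description. For Bid they were Znfx1, Ifngr2 and Ripk2 (r = 0.986, 0.985 and 0.985), and for Bak1 they were Nmi, Parp12 and Cmpk2 (0.992, 0.991 and 0.991). Those of Bbc3 were Sat1, Klf3 and Smg1 (0.889, 0.883 and 0.875). Like Bid, Ripk2 went from 8.72 CPM in OE to 195 in OE+Cy, and from 11.3 in Scr to 81.6 in Scr+Cy.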

How the data were processed

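Per the labels, mRNA of 24 MIN6 libraries was sequenced. The authors deposited estimated counts per gene, of which 30.3% were not whole numbers and were rounded here, and a second table with the counts scaled by 1 factor per library, a signal that the authors deposited and that served only as a check (largest deviation from 1 factor 0.917%). The submitters' processing notes name FastQC, STAR 2.7.8a, Partek 11.0.24.0204, DESeq2 and mm10. The use of strand is not given in the sources used here.

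All 17696 genes were fitted with edgeR 4.0.16 (R 4.3.3, limma 3.58.1) in 1 model of 6 groups, with TMM scaling and the quasi-likelihood test, and p values were Benjamini-Hochberg adjusted over all genes. There were 9 comparisons and 2 interactions. Levels are CPM, and a log2 fold change is given with its SE. The fit was tested on simulated data. Alternatives were DESeq2 1.42.0, its size factors, a filter on low counts, fits of the compared groups alone, the replicate number as a block, each library left out in turn and, added after seeing the data, 3 libraries with the most fibroblast marker RNA left out.

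Same-numbered libraries deviated together from their group means (12670 genes) with every r over 0.1 for Scr and ZIP (0.141 to 0.634), Scr and Scr+Cy (0.413 to 0.626), ZIP and ZIP+Cy (0.261 to 0.397), OE and OE+Cy (0.162 to 0.455) and Scr+Cy and ZIP+Cy (0.191 to 0.370). This was not so for Scr and OE (-0.129 to 0.295) or Scr+Cy and OE+Cy (0.000631 to 0.165). The sample titles also carry a code, P65 to P68, that goes with the replicate number in all 6 groups and whose meaning is not given in the sources used here. For the former pairs of groups the pairing rests on this check. No 2 replicates agreed within sampling noise.

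The members and gene lists were chosen with earlier results of these data known. All 10 members are named, and of each other list the 3 genes with the largest absolute log2 fold change at an adjusted p under 0.05 in any of the 9 comparisons. Some genes that this rule names are not reported here. Bcl2l13, Ripk2 and the marker genes are given as context. Depth, at 26657795 to 37168207 assigned reads per library, limits Pmaip1, for which a floor of 3 reads covers counting error only. The 3′ UTR search used 1 annotation (GENCODE M21), and promoters came from RefSeq.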

Additional observations from a re-analysis of the deposited data

Results flagged for a closer look

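By Dixon's test, a library stood far from the other 3 of its group in 3 of 54 combinations of member and group without Pmaip1, and chance gives about 1 in 20. Bax was 42.5 CPM in Scr replicate 1 and Bad 22.0 CPM in the same library, each the highest of its group. Bbc3 was lowest in OE+Cy replicate 4, at 11.5 CPM. Pmaip1 met the same test in 3 more groups, where 1 library has reads and the others have 0, so that the ratio tested is fixed at its highest value: 0.0344 CPM in Scr+Cy replicate 2, 0.498 CPM in ZIP+Cy replicate 3 and 0.0677 CPM in OE+Cy replicate 2. The first and the last of these lie under the floor of 3 reads.

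The cytokine response differed between OE and Scr, by the interaction test, for 8 members. The difference was -0.31 on the log2 scale for Bcl2, 0.23 for Bcl2l1, -0.39 for Mcl1, 0.40 for Bax, 0.39 for Bak1, 2.39 for Bid, 0.72 for Bbc3 and 0.54 for Bcl2l11. Line, clone and vector cannot be told apart in these differences.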

How the results depend on the processing

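With an adjusted p under 0.05 and no fold limit in place of the study's thresholds, the number of members called was 4 in ZIP against Scr, 8 in OE+Cy against OE, 3 in ZIP+Cy against Scr+Cy, 7 in OE+Cy against Scr+Cy, 5 in ZIP+Cy against Scr and 7 in OE+Cy against Scr. This alternative changes both the fold limit and the adjustment, and their parts were not separated. In ZIP+Cy against Scr, the 5 include Pmaip1, which rested on 1 library. For the different response of ZIP and Scr, the count of 0 became 2 at an unadjusted p under 0.05, 1 with the replicate number as a block and 1 with DESeq2. For that of OE and Scr, a fit of the groups compared alone lost the calls of Bcl2l1 (adjusted p = 0.0999) and Bak1 (0.0521). The count of 8 there became 4 without the 3 libraries with the most fibroblast marker RNA. The cause was not tested. The replicate block moved no count of members at the study's thresholds, nor the count of 8 for the response of OE and Scr. At the adjusted p it added Bcl2l1 (0.0134) and Bbc3 (0.0189) in Scr+Cy against Scr. It also added Bcl2l1 (0.00978) in ZIP+Cy against Scr+Cy. Leaving out 1 library gave 1 to 2 members in ZIP+Cy against Scr+Cy (2 without Scr+Cy replicate 2 or ZIP+Cy replicate 1, 2 or 4) and 4 to 8 for the response of OE and Scr. It gave 2 to 3 in OE against Scr, ZIP+Cy against ZIP and ZIP+Cy against Scr. The range was 3 to 4 in OE+Cy against OE and in OE+Cy against Scr+Cy. The fold change of Bcl2l11 in ZIP against Scr changed sign, to 0.0061 with DESeq2's size factors, 0.0059 with the filter, 0.0012 with the 2 groups alone and 0.0059 with DESeq2. Without the 3 libraries, the sign changed for Mcl1 in ZIP against Scr (-0.011), Bad in OE against Scr (0.031), Bax in ZIP+Cy against Scr (0.017) and, for the response of ZIP and Scr, Mcl1 (0.0035), Bak1 (-0.044) and Bad (-0.042). No value that changed sign was past the threshold. Leaving out 1 library gave ranges across 0 in ZIP against Scr for Mcl1 (-0.036 to 0.050), Bbc3 (-0.050 to 0.18) and Bcl2l11 (-0.11 to 0.077), in OE against Scr for Bad (-0.096 to 0.031) and Bbc3 (-0.24 to 0.070), in OE+Cy against Scr+Cy for Bax (-0.027 to 0.073), and in ZIP+Cy against Scr for Bcl2l1 (-0.021 to 0.032) and Bax (-0.10 to 0.017). For the response of ZIP and Scr the ranges were -0.0077 to 0.056 for Bcl2l1, -0.068 to 0.0035 for Mcl1, -0.062 to 0.12 for Bak1 and -0.018 to 0.10 for Bad. Of the fold changes with 1 library left out, 838 kept direction and call, 62 lost the call, 6 gained it and 30 changed sign. Under the other alternatives, 552 kept direction and call, 19 lost the call, 13 gained it and 10 changed sign. Depth limits Pmaip1 alone among the members.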
